A study of Schizosaccharomyces pombe with 4 samples.

Results

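Long genes of the fission yeast *Schizosaccharomyces pombe* are described here, meaning the protein-coding genes on chromosomes I, II and III whose annotated interval, from the start of the 5′ untranslated region to the end of the 3′ untranslated region, spans 5000 nt or more. There were 169 such genes among 5118 protein-coding genes on these chromosomes and 9111 annotated units in all, with 86 on chromosome I, 50 on chromosome II and 33 on chromosome III. Their length ran from 5012 to 15252 nt with a median of 5741 nt, against a median of 1846 nt for the other 4949 genes. The rule uses annotated length and no measured value. The last genes inside the limit were SPBC887.02, a ClC chloride channel of 5012 nt, and *zfs1*, a zinc finger protein gene of 5015 nt. In IP their densities were 14.2 and 13.9 RPKM for SPBC887.02 and 70.1 and 73.0 RPKM for *zfs1*. Just outside were *txc1* (4992 nt, 21.5 and 21.6 RPKM in IP) and *mrpl24* (4980 nt, 9.67 and 8.97 RPKM in IP).

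All libraries came from wild-type cells of strain YAM2492, which carries a FLAG tag on the RNA polymerase II (RNAPII) subunit Rpb3 (*rpb3-flag*) and is of h- mating type. Cultures grew in rich YES medium and were taken in mid-log phase. The IP group holds 2 libraries of nascent RNA, which is the RNA that came down with RNAPII on an anti-FLAG gel. The input group holds 2 libraries of total RNA that went through the same ligation and sequencing steps, and every library carries the FLAG-tagged allele, so nothing here is compared with an untagged strain. Levels are densities in RPKM, reads per kb of feature relative to library depth, on a scale set by recovered whole reads, and all are per length. Values come from whole cultures, so fewer cells transcribing a gene and less RNA per cell cannot be told apart. The scale puts IP replicates 1 and 2 at 7100000 and 7117477 reads, and input replicates 1 and 2 at 9082385 and 9823089 reads. On the median long gene fell 1007 and 1024 IP reads but only 44 and 104 input reads, against 355 and 326 IP reads and 16 and 34 input reads on the median other gene. At a length of 5 kb, 3 reads came to between 0.0611 and 0.0845 RPKM. Of the 169 genes, 54 shared nucleotides with another unit on their own strand, and their values are uncertain for that reason.

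NET-seq maps RNAPII along genes by sequencing the 3′ ends of the RNAs that the enzyme is still making. A long gene takes the polymerase longer to cross than a short one and offers it more sequence in which to pause, terminate early or meet a polymerase coming from the opposite strand. In fission yeast, the longest coding sequences encode giant enzymes and scaffolds such as fatty acid synthase, dynein, the checkpoint and TOR kinases and the synthases of the glucan cell wall, whereas other genes are long because an untranslated region is.

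Repeated sequence limits which of the long genes 50-nt reads can measure. In the RefSeq genome (ASM294v3), 162 of the 169 genes consisted wholly of 50-base windows found once in the genome. The exceptions with the lowest share of unique windows were *tlh1* (0.891%), *tlh2* (6.75%), SPBPJ4664.02 (33.9%) and *gsf2* (60.1%), and *pan1*, *rpb1* and *bbc1* had between 94.6% and 99.4%. The subtelomeric RecQ-type helicase genes *tlh1* and *tlh2* shared 99.1% of the 5613 windows of *tlh1*, and their first coding bases are shown because they are the same letter for letter. The capitals mark the start codon. The *tlh1* bases lie at chromosome I, 5633 to 5662 (minus strand), and the *tlh2* bases at chromosome II, 4526885 to 4526914 (plus strand).
tlh1: ATGgtcgtcgcttcagaaattgctaaagtc
tlh2: ATGgtcgtcgcttcagaaattgctaaagtc
The glycoprotein gene SPBPJ4664.02 is built on a short repeat. The first of the 30-base words below occurred 70 times in the gene and the other 65 times, most often 36 and 72 nt apart, and the capitals mark the 3 bases in which the words differ. Their first copies lie on the plus strand of chromosome II at 689144 to 689173 and at 688928 to 688957.
SPBPJ4664.02 word 1: tccacaccaattactagttcAaCtgttGtg
SPBPJ4664.02 word 2: tccacaccaattactagttcTaGtgttCtg
The *gsf2* word, shown because this gene had the highest density outside its coding sequence relative to that inside in IP, occurred 7 times at a usual spacing of 132 nt, with its first copy at chromosome III, 961435 to 961464 (minus strand).
gsf2: actgaaaccgacattgttactgttacaact

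*tlh1* had no read in any library. *tlh2* had 2 and 7 reads in IP (0.0468 and 0.164 RPKM) and none in either input library, which came to 1.56 RPKM in IP per unique window. SPBPJ4664.02, a gene of 12261 nt, had 387 and 341 IP reads, against 35 and 67 input reads. Its mean density was 4.18 RPKM in IP and 0.435 in input over the whole gene. Divided by the share of unique windows, the same reads came to 12.3 RPKM in IP and 1.29 in input. For *gsf2*, a cell surface glycoprotein gene, the mean was 12.2 RPKM in IP and 0.629 in input, or 20.3 and 1.05 RPKM per unique window. Densities of these 4 genes over the whole interval thus rest on the unique windows alone.

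Long genes had nearly the density of other genes. The median long gene had 23.0 and 23.3 RPKM in IP, against 26.2 and 24.6 RPKM for other genes. In input the medians were 0.875 and 1.73 RPKM for long genes and 0.927 and 1.80 RPKM for other genes. On the log2(RPKM + 1) scale the median long gene lay 0.18 and 0.08 below the median other gene in IP and 0.04 below it in both input libraries. The difference between these gaps, IP minus input, was -0.09 on the log2 scale, with p = 0.333 by a two-sided exact permutation test over the libraries, which is the smallest p that 2 against 2 libraries allow. With edgeR and DESeq2 the sign of this difference turned (0.02 and 0.03), so no direction can be given. By length class, median IP density was 29.5 and 27.5 RPKM below 1000 nt. In classes 1000 nt wide it was 25.8 and 23.9 RPKM from 1000 nt on, 27.7 and 26.1 from 2000 nt on, 24.9 and 24.1 from 3000 nt on, and 21.5 and 19.9 from 4000 nt on, beside the 23.0 and 23.3 RPKM of long genes. The classes overlapped throughout, since the middle 50% of long genes ran from 14.2 to 38.2 RPKM in IP replicate 1 and the middle 50% of the shortest class from 12.3 to 76.9. A mean above 1 RPKM in IP was reached by 167 of 169 long genes (98.8%) and 96.1% of other genes, the exceptions among long genes being *tlh1* and *tlh2*. In input it was reached by 108 long genes (63.9%) and 61.5% of other genes.

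**Figure D1:**
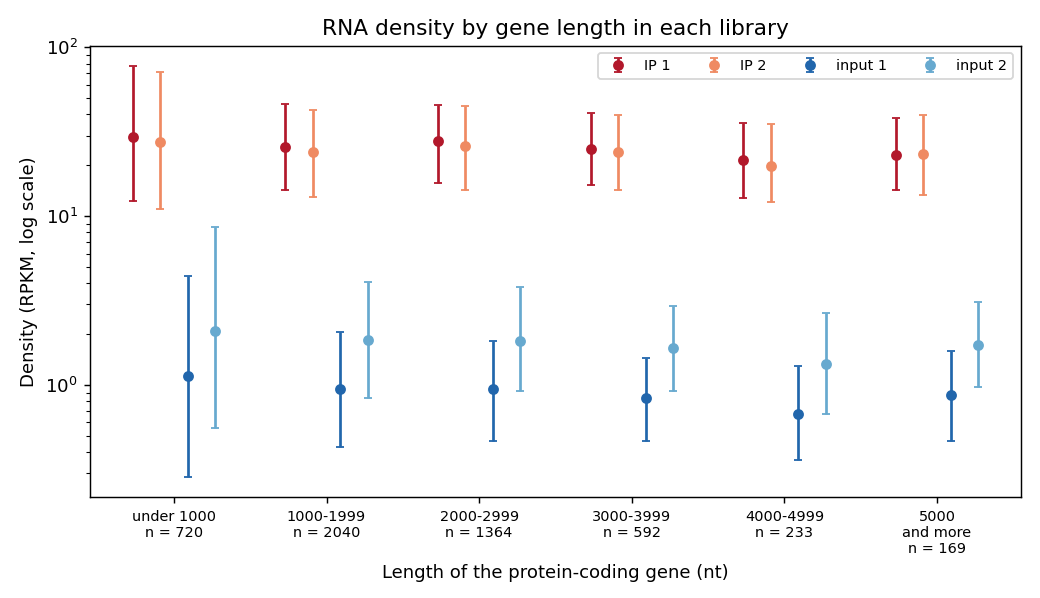
Density in RPKM (log scale) of protein-coding genes grouped by length in nt. Points are medians over the genes of a class in each of the 2 IP and 2 input libraries, and bars span the middle 50% of the genes. The medians of genes of 5000 nt or more (23.0 and 23.3 RPKM in IP, 0.875 and 1.73 in input) sit within the range of the shorter classes.

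Replicates of long genes were close in IP. All 169 lay within 2-fold of each other in the IP libraries on the log2(RPKM + 1) scale, with an SD of the difference of 0.133, against 0.328 for genes below 1000 nt. The input libraries differed more. Input replicate 2 was the higher one for 165 of 169 long genes, with a median shift of 0.55 (log2), against 0.53 over all protein-coding genes. This shift enters the spread of every IP to input comparison below.

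Long genes were of more than 1 kind. The coding sequence (CDS) reached 5000 nt in 71 of the 169 genes and was shorter in 98, and in 36 genes it made up less than 50% of the gene. Genes with a CDS of 5000 nt or more had median densities of 27.1 and 26.8 RPKM in IP and 1.32 and 2.56 in input. Genes with a shorter CDS had 20.5 and 19.9 RPKM in IP and 0.709 and 1.40 in input. Counted over the CDS alone the gap was smaller in IP, with medians of 27.1 and 28.0 RPKM for the first kind and 25.4 and 24.5 RPKM for the other. Neither comparison was tested, since genes are not replicates. In whole-gene density, members defined by a CDS of 5000 nt or more lay 0.09 above other genes on the log2 scale in IP and 0.31 above in input. The sign of that gap thus depends on which length is used. Over the CDS alone their IP medians (27.1 and 28.0 RPKM) were below those of genes under 5000 nt (32.2 and 30.1 RPKM). Their input medians over the CDS were above (1.33 and 2.59 against 1.17 and 2.26 RPKM).

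The 10 longest genes were of several kinds, and their densities ranged widely. *sib1*, the ferrichrome synthetase that makes an iron-binding siderophore, spans 15252 nt and had 12.2 and 13.6 RPKM in IP and 0.873 and 1.48 in input. *mdn1*, which encodes the giant AAA protein midasin of ribosome assembly, spans 14362 nt and had 37.0 and 43.8 RPKM in IP and 1.95 and 4.51 in input. *dhc1*, the dynein heavy chain, spans 12946 nt and had 10.04 and 10.4 RPKM in IP and 0.493 and 0.629 in input. After SPBPJ4664.02 come *tra2* and *tra1*, pseudokinase subunits of chromatin complexes, with 16.3 and 17.0 RPKM and 15.04 and 14.8 RPKM in IP. The ATR checkpoint kinase gene *rad3* had 16.4 and 17.9 RPKM and the ubiquitin ligase gene *ptr1* had 37.8 and 41.6 RPKM in IP. *vps1301* and *vps1302*, which encode lipid transfer proteins, had 10.9 and 9.86 RPKM and 18.7 and 21.3 RPKM in IP. Length and mean IP density were nearly unrelated across the 169 genes (Spearman's rank correlation -0.09, a description across genes of 1 pair of libraries, which are not independent).

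The highest densities belonged to metabolic and transport genes. *fas1*, the beta subunit of fatty acid synthase, had 254 and 259 RPKM in IP and 22.2 and 50.5 in input. *ura1*, which encodes the first enzymes of pyrimidine synthesis, had 218 and 239 RPKM in IP and 19.0 and 38.1 in input. *bfr1*, a drug efflux transporter of the plasma membrane, had 209 and 222 RPKM in IP and 6.89 and 16.1 in input. *sir1*, a sulfite reductase subunit, had 192 and 202 RPKM in IP and 19.4 and 44.9 in input, and *cut6*, acetyl-CoA carboxylase, had 207 and 184 RPKM in IP and 15.4 and 35.1 in input. Besides *tlh1* and *tlh2*, the lowest were SPCC11E10.09c, an alpha-amylase-like gene, with 2.79 and 2.49 RPKM in IP, *mug24*, which encodes an RNA-binding protein, with 3.03 and 3.36 RPKM, and the septation kinase gene *sid1* with 3.99 and 3.61 RPKM. In input these 3 genes had between 0.0439 and 0.274 RPKM. Genes high in IP were mostly high in input, with a Spearman's rank correlation between mean IP and mean input of 0.883 over the long genes and 0.896 over other genes, again as a description across genes.

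Functional lists with at least 3 long genes differed in where their members lay around the median long gene. Of the 6 large metabolic enzymes, 5 exceeded the median of 23.2 RPKM (from *fas1* at 256.03 down to *glt1*, glutamate synthase), and *sib1* at 12.9 did not. Of 8 cell wall glucan synthases 4 exceeded it. *bgs4* (147 RPKM mean), *ags1*, *bgs1* and *bgs3* stood above the median, whereas *mok12*, *mok13*, *bgs2* and *mok11* (12.7 RPKM) stood below. By annotation *mok12* and *bgs2* make the spore wall, *bgs1* the primary septum and the spore wall, and the other 5 the cell wall. In single libraries *bgs4* had 137 and 158 RPKM in IP and 7.87 and 18.7 in input, and *mok11* had 12.9 and 12.4 RPKM in IP and 0.619 and 1.53 in input. All 4 long genes on the DNA replication and repair list lay below the median. *pol1*, the catalytic subunit of DNA polymerase alpha, was highest at 18.2 and *swi1*, a fork protection factor, lowest at 7.71 RPKM. The long gene *mcm5*, an MCM complex subunit, is not on that list and lay above the median, with 26.8 and 25.9 RPKM in IP. The PIKK list, kinases and pseudokinases of the TOR, ATM and ATR family, had 2 of 6 above the median, from *tor2* (31.5) to *tel1* (11.3). All 4 ubiquitin ligases and giant AAA proteins were above, from *mdn1* (40.4) to *ubr1* (24.4).

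Among the remaining lists, nuclear pore and envelope genes ran from *nup189* (64.3) to *nup132* (17.9 RPKM), and motors and cytoskeleton from *pan1*, an actin patch protein (49.1), to *peg1*, a CLASP microtubule protein (9.97). Membrane trafficking ran from *sec31*, a COPII coat subunit (61.9), to *vps1301* (10.4), and translation control and ribosome assembly from *utp10* (54.1) to the eIF2 alpha kinase gene *gcn2* (19.9). Chromatin remodelers ran from *ino80* (32.0) to *hrp3* (21.0), and ATPases, ABC transporters and channels from *bfr1* (216) to *cta5*, a P-type ATPase (8.72). These lists and their members were picked with earlier results of the data known, so the order of the lists is a description.

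**Figure D2:**
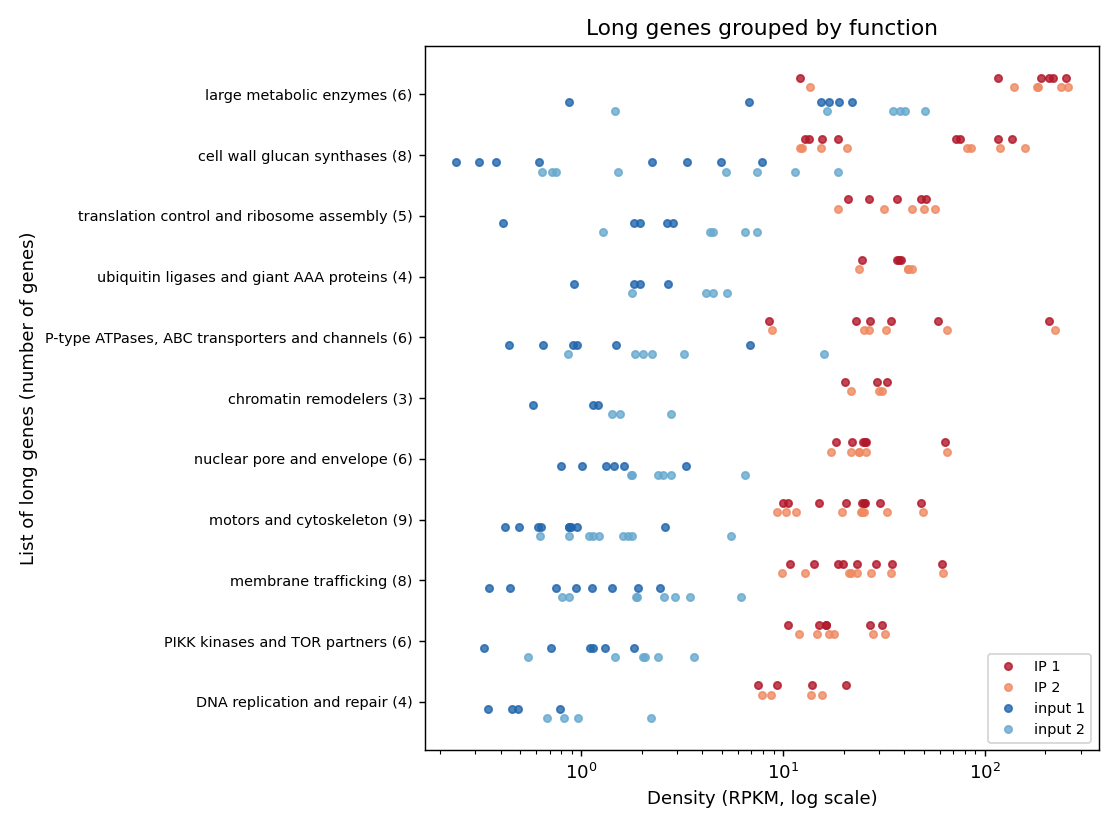
Density in RPKM (log scale) of the long genes in 11 functional lists, ordered by median IP density. Each point is 1 gene in 1 library, with the 2 IP libraries in red and orange above the 2 input libraries in blue. The large metabolic enzymes lie highest in IP and in input, apart from sib1 at 12.2 and 13.6 RPKM in IP, and the list of 4 replication and repair genes has the lowest median in IP.

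All but 1 of the tested long genes were called higher in IP than in input on the deposited scale. limma called 167 of 168 higher and none lower. It called 98.4% of protein-coding genes and 92.8% of all units higher, and 0.0791% and 0.92% lower, so the count says nothing of long genes in particular. *tlh2* was the gene not called (adjusted p = 0.203), and *tlh1* had no reads to test. The count of lower genes in limma was also 0 at an unadjusted p under 0.05, whereas edgeR and DESeq2, which rescale on composition, called 31 of 168 and 23 of 167 lower. The median log2 change was 3.26 over long genes and 3.28 over all protein-coding genes. Changes named below are best read against that common shift.

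With the common shift removed, long genes were called in both directions. edgeR with TMM scaling on the recovered reads called 45 of 168 long genes higher in IP and 31 lower, beside 17.5% of protein-coding genes higher and 19.3% lower (14.7% of all units either way). Among the other genes of 2000 nt or more, edgeR called 531 of 2175 higher and 337 lower. The median log2 change was 0.17 in these genes and 0.09 in long genes. A share of higher calls above that of all protein-coding genes was therefore not particular to long genes. DESeq2 called 24 of 167 higher and 23 lower, beside 9.48% and 16.1% of protein-coding genes. Among genes with a CDS of 5000 nt or more, 10 of 70 were higher (14.3%) and 24 lower (34.3%). Among genes with a shorter CDS, 35 of 98 were higher (35.7%) and 7 lower (7.14%). Leaving out 1 library at a time gave 5 to 8 higher and 8 to 28 lower for the first kind, with the 8 coming without IP replicate 1, and 24 to 33 higher and 3 to 7 lower for the other. With limma after each library was set to its protein-coding median, the counts were 3 higher and 22 lower for the first kind and 18 higher and 32 lower for the other, beside 12.6% and 34.7% of protein-coding genes, so the share of higher genes among those with a short CDS exceeded the background in both, and their share of lower genes was below it by more in edgeR. No test of the split over genes was made.

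Among genes with at least 10 reads in each input library (162 long genes), the largest changes belonged to genes with long untranslated regions in the annotation used here. *cbf12*, a DNA-binding factor of the CBF1/Su(H)/LAG-1 family, had 44.2 and 41.6 RPKM in IP and 0.448 and 0.904 in input (log2 change 4.72 ± 0.24 SE, limma adjusted p = 0.000632), which is 1.45 above the protein-coding median. *bdf2*, a bromodomain protein gene, had 62.2 and 72.5 RPKM in IP and 0.916 and 2.70 in input (4.68 ± 0.41). *ppr5*, which encodes a PPR repeat protein, had 77.6 and 85.6 RPKM in IP and 1.60 and 3.07 in input (4.66 ± 0.33). SPCC320.03, annotated as a transcription factor, had 59.0 and 77.2 RPKM in IP and 1.38 and 2.39 in input (4.59 ± 0.32), and the kinase gene *ppk1* had 52.1 and 57.9 RPKM in IP and 1.03 and 2.17 in input (4.46 ± 0.32). These 5 were also called higher by edgeR (log2 changes 1.09 to 1.96). *bdf2*, *ppr5*, SPCC320.03 and *ppk1* have most of their non-coding length upstream of the CDS.

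At the other end, 4 of the 5 genes had IP densities between 3.91 and 7.51 RPKM. SPBPJ4664.02 had the smallest change (1.85 ± 0.15 SE), and edgeR called it lower (-0.77, adjusted p = 0.00229), with 33.9% of its windows unique. *msw1*, tryptophan tRNA ligase, had 4.64 and 4.71 RPKM in IP and 0.228 and 0.346 in input (2.14 ± 0.12). SPAC19A8.11c, annotated as the recombination protein Irc6, had 7.51 and 4.88 RPKM in IP and 0.298 and 0.452 in input (2.37 ± 0.24). SPCC1620.05, for a subunit of the enzyme that adds lipid anchors to Rab proteins, had 6.22 and 6.54 RPKM in IP and 0.264 and 0.436 in input (2.45 ± 0.14). *prm1*, a gene for membrane fusion in conjugation, had 11.7 and 12.8 RPKM in IP and 1.15 and 1.69 in input (2.46 ± 0.20), and edgeR called it lower (-0.94, adjusted p = 0.000422). Most of its input reads lay outside the CDS. Over the CDS alone *prm1* had 13.5 and 14.4 RPKM in IP and 0.365 and 0.819 in input. For *msw1*, SPAC19A8.11c and SPCC1620.05 the edgeR change was between -0.00207 and 0.16 and not called. A change on the log2(RPKM + 1) scale is smaller for genes of low density, and these 3 had input densities under 0.5 RPKM.

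The metabolic enzymes were at the lower end on the edgeR scale. It called 5 of 6 lower in IP (*fas1*, *fas2*, *ura1*, *cut6* and *sib1*, log2 changes from -0.58 to -1.27), with *glt1* at -0.51 (adjusted p = 0.0696), and none higher, beside 19.3% of protein-coding genes lower. Without IP replicate 1 it called 3 lower, without input replicate 1 all 6, and limma after quantile normalization called 1 higher and 1 lower, beside 10.9% and 8.5% of protein-coding genes. Of the 8 glucan synthases, *mok12* (1.20), *mok13* (1.12) and *bgs2* (0.51) were called higher and *mok11* (-0.45) lower, beside 17.5% of protein-coding genes higher and 19.3% lower. These lists were chosen with results of these data known, so the counts are no independent evidence of a direction.

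The density outside the CDS relative to that inside differed with the side of the CDS. In 81 long genes at least 1000 nt lay outside the CDS, of which at least 80% was upstream of the CDS (5′ genes, 18) or downstream (3′ genes, 37), or neither (26). The part outside the CDS includes introns as well as untranslated regions. The density outside the CDS was divided by that in the CDS of the same gene, with 0.5 reads added to each count. In 5′ genes the median ratio was 0.951 and 0.874 in IP and 0.536 and 0.527 in input. In 3′ genes it was 0.323 and 0.331 in IP and 0.252 and 0.244 in input. In the mixed genes it was 0.638 and 0.640 in IP and 0.552 and 0.457 in input. In IP all 37 3′ genes were below 1 and 31 of them below 0.5, whereas 8 of 18 5′ genes were above 1. Other genes with 1000 nt or more outside the CDS had median ratios of 0.630 and 0.646 in IP and 0.415 and 0.457 in input for 116 5′ genes, and 0.426 and 0.459 in IP and 0.456 and 0.393 in input for 281 3′ genes. IP replicates of a class differed by less than the classes did. In each long 3′ gene, 1 opposite-strand gene covered between 13.4% (*ski3*) and 99.98% (*dhd1*) of its length. In long 5′ genes the largest such overlap ran from 0% (*mbx2*) to 33.6% (*nup132*). Side and overlap were therefore linked, and which of them goes with the ratio was not tested. These ratios were an addition made with the data in view.

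**Figure D3:**
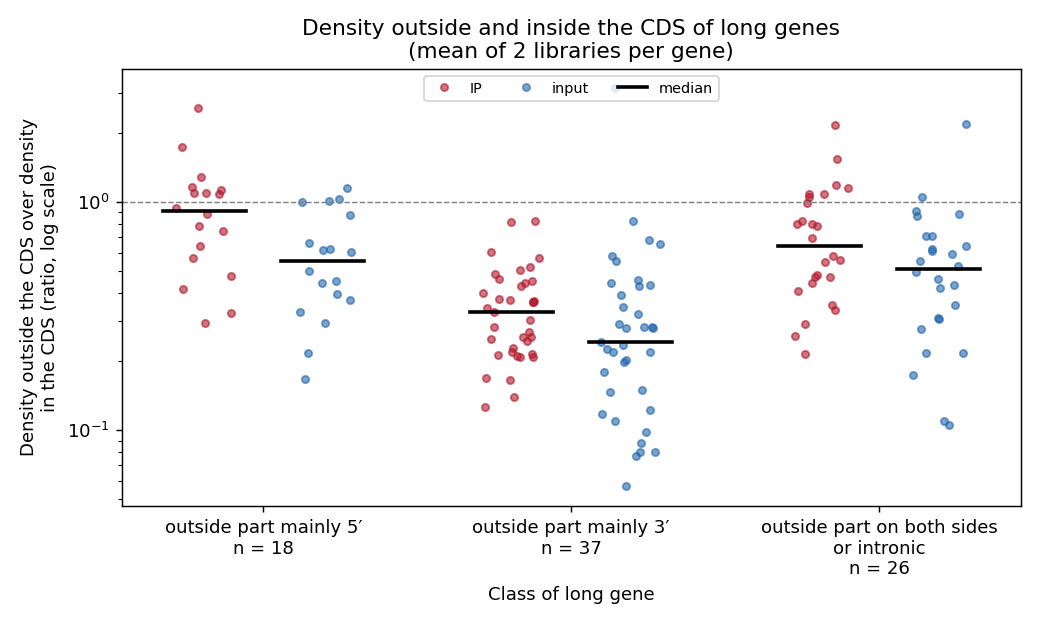
Ratio of the density outside the CDS to the density in the CDS (log scale) for the 81 long genes with at least 1000 nt outside it, each point a gene averaged over 2 libraries, in IP (red) left of input (blue), with black bars at the medians. The 3′ genes lie below 1 in IP, and 8 of the 18 5′ genes lie above it.

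Among single genes, the lowest ratios were those of 3′ genes with a short CDS. *esf2*, a ribosome assembly gene of 5344 nt, had ratios of 0.111 and 0.142 in IP, *atp1*, the alpha subunit of ATP synthase, 0.139 and 0.140, SPCC1620.05 0.139 and 0.192, and *nop2*, an rRNA methyltransferase gene, 0.178 and 0.160. At the other end stood *gsf2* (2.68 and 2.50 in IP), with 60.1% of its windows unique, *mug24* (2.34 and 2.00, from 23 and 29 CDS reads in IP) and *mok12* (1.70 and 1.78). The 5′ gene *kgd1*, alpha-ketoglutarate dehydrogenase, had ratios of 0.956 and 0.822 in IP and 0.271 and 0.317 in input. For the ratio in IP against that in input, an edgeR interaction on recovered reads called 14 of 81 long genes higher in IP and 1 lower, beside 8.72% of the 1044 genes tested higher and 2.3% lower. Among 5′ genes it called 5 of 18 higher and none lower (*bdf2*, *kgd1*, *bfr1*, SPCC320.03 and *ppr5*), beside 18 of 115 higher and 1 lower among other 5′ genes. In 3′ genes 3 of 37 were higher (*atp1*, *nop2* and *fab1*), and *prm1* was lower, with ratios of 0.813 and 0.834 in IP and 3.85 and 2.45 in input. The lysine synthesis gene *lys1* lies opposite 62.6% of *prm1*. The other 6 called higher were *cut6*, *ags1*, *bgs3*, *bgs4*, *pmd1* and SPCC594.01. In *cut6*, 379 of the 1001 nt outside the CDS lie downstream of it and the rest in introns. Of other 3′ genes edgeR called 16 of 280 higher and 8 lower. The median interaction was 0.71 on the log2 scale in long 5′ genes and 0.52 in long 3′ genes, against 0.52 and 0.22 in the other genes of these classes. In long 3′ genes its sign turned with limma on the ratio at a pseudocount of 1 RPKM (-0.75), whereas in long 5′ genes it stayed above 0 in every fit run. That limma fit called none of the 37 3′ genes higher and 22 lower, and 13 of the 81 long genes higher and 26 lower, beside 7.69% of the 1054 genes it tested higher and 21.1% lower. No direction can therefore be given for 3′ genes.

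CDS segments place reads within a gene that has introns. In 13 long genes the first and the last CDS segment each had at least 300 nt, and 12 of the 13 had a lower density in the last one in IP (median log2 ratio -0.61), against a median input ratio of 0.16. Other genes had a like pattern, with 147 of 168 below 0 in IP (median -0.51) and a median of 0.01 in input. SPCC594.01, which encodes Duc1, had 276 and 203 RPKM in the first and 77.2 and 62.2 in the last segment in IP, against 3.66 and 6.09 in the first and 2.83 and 5.54 in the last in input. The log2 ratio was 1.56 lower in IP than in input (± 0.17 SE, limma adjusted p = 0.0139). *can1* (SPBC18H10.16), annotated as a vacuolar cation-chloride cotransporter, and SPAC24B11.12c, a phospholipid-transporting ATPase gene, were also called lower by limma (-0.99 and -1.10, adjusted p = 0.0422 and 0.0263), and limma called 16.6% of the 181 genes lower and 1.66% higher. edgeR called 6 of 13 lower, *sib1*, *cut1* and *nup189* besides these 3, beside 15.1% of the 172 genes it tested. With all libraries limma called 1 of the 13 genes higher and 3 lower. The lower calls in limma did not hold when either IP library was left out. *pol1* (-1.16 and -1.14 in IP) and *nup189* (-1.10 and -0.79 in IP) had the next lowest ratios, whereas *msw1* (-0.35 and 0.05) and SPAC4F10.16c (-0.21 and -0.12) were near 0.

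*mok13* stood apart. Its first CDS segment of 357 nt had 1 read in each IP library and 0 and 2 reads in the input libraries, and its last segment of 6720 nt had 808 and 797 IP reads, against 16 and 44 input reads. The log2 ratio was 3.68 and 3.66 in IP (limma difference 3.46, adjusted p = 0.00199, and edgeR adjusted p = 0.0827). The first segment lay at or below 3 reads in all 4 libraries.

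**Figure D4:**
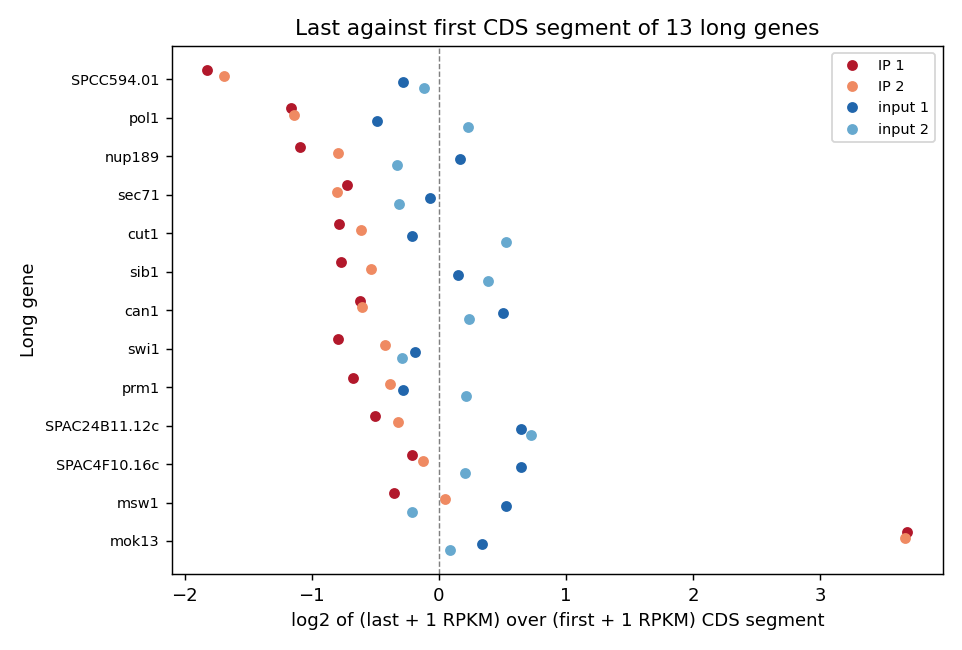
The log2 ratio of last to first CDS segment density (pseudocount 1 RPKM) in each of the 2 IP and 2 input libraries for the 13 long genes with segments of 300 nt or more, lowest mean IP ratio at the top. The IP points lie at or below -0.12 in 11 genes, msw1 is between -0.35 and 0.05, and mok13 is at 3.66 and 3.68.

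Antisense units were annotated inside 56 of the long genes. There were 79 in all, 46 XUTs, 19 nc-TUs and 14 annotated ncRNAs, lying wholly within a long gene on the other strand. XUTs are antisense or intergenic RNAs that build up when the cytoplasmic exonuclease Exo2 is absent, and nc-TUs are further noncoding transcription units. That was 73.6 units per Mb of long gene, against 123 per Mb of other genes and 115 per Mb of those other genes that span 2000 nt or more. At least 1 such unit lay in 33.1% of long genes, 24.1% of the other genes of 2000 nt or more and 19.1% of all other genes. When an overlap of 50 nt sufficed, the densities were 115 and 238 units per Mb. In 40 genes there was 1 unit, and *alm1*, a nuclear envelope gene, held the most with 4. Of the 79 units, 24, 23 and 32 had their midpoint in the first, the middle and the last of 3 equal stretches of the gene, in the direction of transcription.

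Their levels were low. The median antisense unit had 2.21 and 2.44 RPKM in IP, from 10 and 11 reads, and 53 of 79 had a mean above 1 RPKM. In input 34 units had no read in either library and 66 had 3 or fewer in each, so most input levels were at the floor. limma called 64 of 78 tested units higher in IP, beside 89.5% of all ncRNAs, nc-TUs and XUTs tested, and edgeR called 5 higher, beside 11.9%. The count of lower units was 0 in limma, edgeR and DESeq2, beside 0.92%, 14.7% and 15.7% of all units. It was also 0 at an unadjusted p under 0.05. So few input reads left little room for a lower call in these fits. With limma after each library was set to its protein-coding median the direction turned, with 2 units higher and 67 lower, beside 4.97% and 79.1% of all ncRNAs, nc-TUs and XUTs. The gene had 7.17 times the density of its unit at the median. XUTs had medians of 2.59 and 2.79 RPKM in IP, against 2.80 and 2.59 for all 1638 XUTs. Annotated ncRNAs had 2.52 and 2.49 RPKM, against 3.65 and 3.19 for all 1522. nc-TUs had 0.701 and 0.551 RPKM, against 4.96 and 4.57 for all 487. The medians of these 19 nc-TUs rest on a median of 1 read in each IP library, which is at the floor.

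The highest were SPNCRNA.1114 in SPCC320.06 (28.8 and 27.5 RPKM in IP from 71 and 68 reads, 0.317 and 1.17 in input), XUT0771 in *sec16*, a vesicle coat scaffold gene (22.4 and 21.2 in IP, 0.188 and 0.232 in input), and SPNCRNA.123 in the SWI/SNF remodeler gene *snf22* (24.97 and 17.6 in IP). novelncTU_61 in *alm1* (11.0 and 13.9 in IP) and novelncTU_18 in *cut6* (8.48 and 15.6 in IP, no read in input) followed. XUT0771 was called higher in IP by edgeR (2.67, adjusted p = 5.05e-05), but it and SPNCRNA.123 share nucleotides with another unit on their strand. In IP 3 units exceeded their gene. SPNCRNA.1114 exceeded SPCC320.06, an uncharacterized gene with 22.3 and 18.4 RPKM, by 7.84 RPKM on average. novelncTU_22 and novelncTU_21 in SPAC57A7.05 (11.0 and 11.2, and 10.9 and 11.2 RPKM) exceeded that gene (8.28 and 7.48 RPKM) by 3.22 and 3.18. The next closest, XUT0882 in SPCC11E10.09c (1.20 and 2.26 RPKM) and vps13a-antisense-1 in *vps1301* (8.82 and 5.99 RPKM), stood below their genes (2.79 and 2.49, and 10.9 and 9.86 RPKM).

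**Figure D5:**
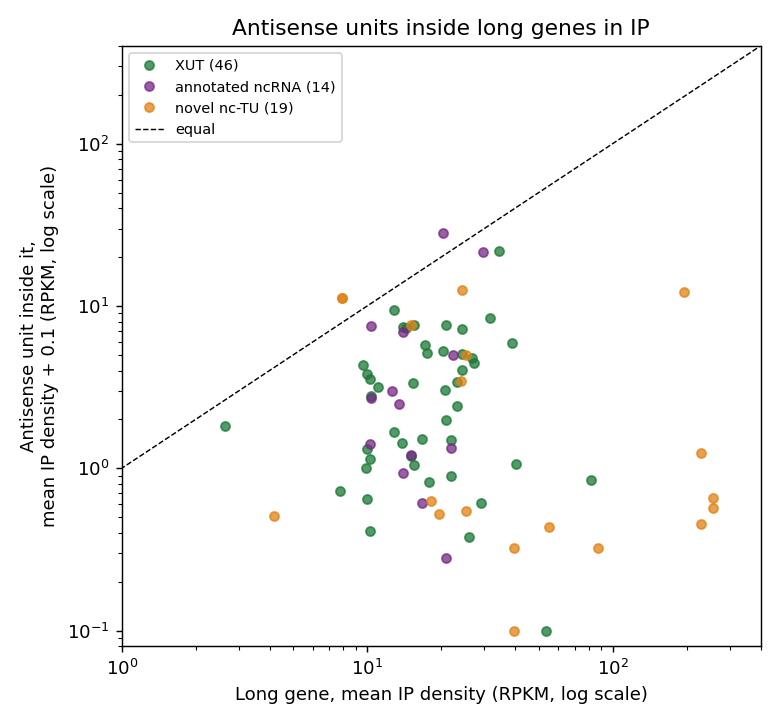
Mean IP density of each of the 79 antisense units (RPKM plus 0.1, log scale) against that of the long gene it lies in (RPKM, log scale), coloured by annotation, with the line of equality dashed. Points above the line are the 3 units that exceed their gene.

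Long genes that hold an antisense unit had lower medians than the rest. The 56 genes with a unit inside had 19.8 and 18.3 RPKM in IP and 0.796 and 1.52 in input, and the 113 without had 26.6 and 25.9 RPKM in IP and 0.912 and 1.78 in input. Over the CDS alone the medians were 21.9 and 22.4 RPKM in IP with a unit and 28.7 and 28.0 without. No test was made over genes.

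Many long genes overlapped a gene on the other strand. Of the 169 long genes, 83 (49.1%) overlapped an opposite-strand protein-coding gene by at least 50 nt, against 35.5% of other genes. In 30 of the 96 overlapping pairs the opposite gene lay wholly inside, and 23 long genes were covered over more than 50% of their length by 1 such gene. Those 23 had medians of 12.7 and 12.6 RPKM in IP and 0.433 and 0.875 in input, against 26.2 and 27.2 RPKM in IP and 0.973 and 1.95 in input for the 86 long genes with no such overlap. Their CDS made up a median of 32.2% of the gene, against 91.1%, and over the CDS alone the IP medians were 21.0 and 20.0 RPKM against 27.3 and 28.8. The gap was smaller over the CDS.

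In 6 pairs both genes were long. *fab1*, a lipid kinase gene, and *prp17*, a splicing gene, overlap by 7816 nt. *fab1* had 20.1 and 21.1 RPKM in IP over the gene and *prp17* 7.77 and 7.099, but over the CDS alone they had 23.5 and 24.7 and 20.9 and 17.9 RPKM. *dhd1*, dihydrodiol dehydrogenase, and *ams1*, alpha-mannosidase, overlap by 5533 nt, with 9.11 and 6.98 RPKM against 15.6 and 13.2 in IP. Over the CDS they had 19.2 and 13.7 and 21.0 and 18.8 RPKM. *rad3* and *swi1* overlap by 6260 nt (CDS densities 19.4 and 21.7, and 14.2 and 14.4 RPKM in IP), *peg1* and *msw1* by 4831 nt (11.6 and 10.1, and 12.97 and 11.8), *lvs1*, a beige family gene, and *esf2* by 3899 nt (22.1 and 22.4, and 39.1 and 29.2), and *spp42*, a U5 splicing factor, and *sea2* by 2219 nt (52.9 and 50.2, and 18.7 and 16.8). In each pair both CDSs were above 10 RPKM in both IP libraries, so both strands had IP reads in every pair.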

How the data were processed

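NET-seq libraries of nascent RNA (IP) and total RNA (input) from 2 biological replicates each were sequenced strand-specifically with 50-nt reads. The authors mapped reads uniquely with Bowtie to ASM294v2 and deposited 1 table of signal values, read counts per feature scaled on each library's uniquely mapped reads, with the same values per nt as densities. How a read touching several features was counted is not given in the sources used here. In each library 100.0% of values were whole multiples of its smallest value (tolerance 0.01), so whole reads were recovered, and the smallest library was set to 7100000 reads, the lowest total the study states, which fixes the RPKM scale and no ratio between libraries. Columns that sum the replicates were not used, and 28 repeated pseudogene entries were left out.

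Over the 8912 units with a read, limma (3.58.1, R 4.3.3) tested log2(RPKM + 1) of IP against input, and edgeR (4.0.16, TMM, quasi-likelihood) tested recovered reads, calling 1312 units higher and 1312 lower. DESeq2 (1.42.0) was an alternative. P-values were Benjamini-Hochberg adjusted over all units tested, with a threshold of 0.05. Ratios between parts of a gene were tested by limma on the log2 ratio or, on reads, by an edgeR interaction. On simulated data these models recovered the built-in changes, which were large and placed in units with more reads than most antisense units had. There limma on the ratio outside over CDS at 1 RPKM also called many unchanged genes, and the edgeR interaction leads for that ratio. The simulated limma ratios were fitted without the trend of variance with density that the reported fits used. The rate of false calls in the reported limma ratios is therefore not known. Medians over genes carry no test. Input replicates differed by 0.53 and IP replicates by -0.08 in the median log2 value over protein-coding genes, and no replicate pair was a repeat of 1 library, with a chi-square per long gene of 6.77 in IP and 1.62 in input. Floors of 3 reads cover counting error only.

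Genes named were the 10 longest, the 5 highest and 5 lowest in IP, the 5 largest and 5 smallest changes among genes with at least 10 reads in each input library, the extremes of each list with 3 or more members, the 5 antisense units highest in IP and the 5 exceeding their gene most, the 3 highest and 3 lowest segment ratios, and the neighbours of the length limit. Genes named for the ratio outside the CDS, for opposite-strand overlap or as called list members were chosen after their values were seen. Members and lists were chosen with earlier results of these data known, and *pmc1* was moved to the ATPase list and *mot1* taken off the translation list once the table's names were seen. A further list is not reported here. All 169 genes matched RefSeq ASM294v3, in which 145 span 5000 nt or more. Python 3.11.15 with numpy 2.4.6, pandas 2.3.3, scipy 1.17.1 and matplotlib 3.10.9 was used for the rest.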

Additional observations from a re-analysis of the deposited data

How the results depend on the processing

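Of 379 alternatives, 263 left direction and call as they were. For the main results 80 moved the value and 11 turned its direction. For the other results 20 turned the direction and 5 weakened the result. Of all alternatives, 79 were added after the data were seen. Pseudocounts of 0.1 and 10 RPKM gave a median change of 4.03 and 1.53 for long genes. Rescaling removed the common shift. Centring on the protein-coding median called 21 long genes higher and 54 lower (median -0.24) and 2 antisense units higher and 67 lower, beside 9.19% and 54.4% of all units. Quantile normalization called 17 and 9 (median -0.0638) and 5 antisense units higher. edgeR called 45 and 31 (median 0.0911) with 5 antisense units, and DESeq2 24 and 23 (median 0.0208) with 2. The gap between long and other genes, IP minus input, turned to 0.0238 in edgeR and 0.0325 in DESeq2. SPBPJ4664.02 changed by -1.65 (centred), -0.76 (quantile), -0.77 (edgeR) and -0.83 (DESeq2). *msw1* gave -1.36, -0.42, -0.00207 and -0.0736, SPAC19A8.11c -1.14 and -0.40 (centred, quantile) and -0.0692 (DESeq2), SPCC1620.05 -1.05 and -0.30, and *prm1* -1.04, -0.89, -0.94 and -1.02.

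The labels pair replicates by number only, and deviations correlated at 0.31 over long genes and 0.15 over all genes. With the replicate block limma still called 167 long genes, edgeR called 49 higher and 36 lower, beside 20.0% and 21.2% of protein-coding genes (median 0.11, 5 antisense units, gap 0.0447), and the segment ratio lost its calls (0, with 1 higher and 5 lower at an unadjusted p under 0.05). In the block fit the 3′ ratio outside over CDS was -0.75, as without it (-0.75 at 1 RPKM), and edgeR gave -0.78 for SPBPJ4664.02, -0.0702 for SPAC19A8.11c and -0.94 for *prm1*.

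Length limits mattered. From 4000 nt on, the gap to other genes was -0.24 in IP and -0.15 in input, with 387 genes higher, 1 lower, and 161 antisense units higher at a median log2 level of 1.94. From 6000 nt on it was -0.25 and 0.0124, with 66 genes and 28 units. With a CDS of 5000 nt or more it was 0.0927 and 0.31, with 69 and 34. The input gap was -0.0657 at 0.1 RPKM, -0.0322 without shared nucleotides, -0.00578 against other genes of 2000 nt or more, -0.00978 by RefSeq length, and -0.0341 without repeats, and over CDS reads the gaps were -0.27 in IP and -0.11 in input. Antisense calls were 40 from 1 RPKM on, 104 with overlaps of 50 nt, 39 for XUTs and 25 for the others, with log2 levels of 1.27 at 0.1 RPKM, 1.44 by RefSeq length, 1.94 (1.936) with overlaps, 1.93 for XUTs and 1.15 for the others, and 115.5, 42.8 and 30.7 units per Mb.

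The segment ratio gave 1 and 11 calls among the 13 genes at 0.1 and 10 RPKM, with a median of -0.50 at 10 RPKM. With segments from 100 nt on, 1 of 13 genes was called higher and 1 lower. The ratio outside over CDS in IP was 1.05 (5′) and 0.371 (3′) without shared nucleotides, 0.711 and 0.307 from 2000 nt on, and 0.373 (3′) with 1 CDS segment. Calls by CDS length were 3 higher for long CDSs and 21 higher and 4 lower for short ones in DESeq2, 3 against 18 and 32 when centred, and 4 and 7 against 13 and 2 after quantile normalization. Leaving out 1 library, where the lone library is assumed to vary like the other group, gave 0 to 6 segment calls, 0 to 1 antisense units lower, 5 to 8 higher and 8 to 28 lower long-CDS genes, 24 to 33 higher and 3 to 7 lower short-CDS genes, and a 3′ ratio change of -0.0621 to 0.20 at 0.1 RPKM. The causes were not tested.

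Input depth was a limit, since the median long gene had 44 and 104 input reads and most antisense units 3 or fewer. With 2 libraries a group, p-values measure the spread between these libraries.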
